A study of Mus musculus with 22 samples.

Results

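The genes described here are the nuclear-encoded subunits of the mitochondrial respiratory chain and ATP synthase, followed across 5 groups of mouse livers. They were chosen by symbol, as names that begin with Nduf and a letter of the a, b, c, s or v series, Sdha to Sdhd, or names that begin with Uqcr, Cox4 to Cox8 or Atp5, and by a mean of at least 5 RPKM over all libraries. RPKM are reads scaled to the length of the gene in kilobases and to the depth of the library. The authors deposited values for 23909 gene symbols, of which 84 matched the names and 79 passed the level, namely 37 of complex I, 4 of complex II, 8 of complex III, 13 of complex IV and 17 of complex V. The 5 left out were Cox7b2 and Cox8c, which were listed at 0 in every library, and Cox4i2, Cox6a2 and Cox8b, which are isoforms of other tissues. Names and complexes do not coincide everywhere. Some subunits carry other names and are not among the 79, such as Ndufab1, Cyc1 and Usmg5. Ndufa4 was first described in complex I and is now counted as a complex IV subunit, Ndufa4l2 is its paralog, Atp5sl (now Dmac2) is an assembly factor of complex I, and Atp5s (now Dmac2l) is a coupling factor of ATP synthase.

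All mice were male C57BL/6, and the labels record every one as fasted. JAX (n = 4) and TAC (n = 4) were bought from Jackson and Taconic, GF (n = 4) were germ-free. Germ-free recipients of cecal contents from JAX mice (GF_JAX, n = 5) or TAC mice (GF_TAC, n = 5) were kept for 4 weeks and then fasted for 16 h. Poly(A) RNA was sequenced. The age of the mice, the supplier of the germ-free mice and whether each library came from its own mouse are not given in the sources used here, and the p-values therefore reflect a spread between libraries that could be technical.

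Complexes I and II pass electrons from NADH and succinate to ubiquinone, complex III passes them to cytochrome c and complex IV to oxygen. Proton pumping by complexes I, III and IV drives ATP synthase, complex V. Most subunits are encoded in the nucleus and a small set of core subunits in mitochondrial DNA, and the liver, rich in mitochondria, depends on the chain for the oxidation of fatty acids during fasting. The factors NRF1, GABP (of the ETS family) and YY1 are known to bind many promoters of these genes, and PGC-1alpha and ERRalpha act on them as well.

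Promoter sequences are shown for 6 genes to let the motifs of these factors be read beside the levels: Cox6a1, the complex IV gene of the highest level, Sdha, which did not pass the test in any comparison, Ndufb6 and Ndufa11, which passed in both comparisons of germ-free with vendor mice, and Atp5sl and Cox6b2, which depart from most of the other genes. Each stretch holds 250 bases before and 50 bases after the start of transcription in RefSeq (build GRCm38.p6), written 5′ to 3′ on the strand of the gene. Atp5sl has 2 such stretches, of which the first is shown. The other, chr7:25619243-25619542, overlaps it and also holds the YY1 motif. Capitals mark GCGCA and GCGC parted by any single base (NRF1), CCGGAAG (ETS, read as CTTCCGG on the other strand) and AAGATGGC (YY1).
Cox6a1, chr5:115348909-115349208, minus strand: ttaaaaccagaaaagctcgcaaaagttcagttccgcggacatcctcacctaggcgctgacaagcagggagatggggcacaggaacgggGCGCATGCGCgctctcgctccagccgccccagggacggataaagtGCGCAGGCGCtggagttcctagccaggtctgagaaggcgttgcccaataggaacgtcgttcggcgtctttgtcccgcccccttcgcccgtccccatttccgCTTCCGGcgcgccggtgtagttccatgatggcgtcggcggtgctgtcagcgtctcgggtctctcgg
Sdha, chr13:74350191-74350490, minus strand: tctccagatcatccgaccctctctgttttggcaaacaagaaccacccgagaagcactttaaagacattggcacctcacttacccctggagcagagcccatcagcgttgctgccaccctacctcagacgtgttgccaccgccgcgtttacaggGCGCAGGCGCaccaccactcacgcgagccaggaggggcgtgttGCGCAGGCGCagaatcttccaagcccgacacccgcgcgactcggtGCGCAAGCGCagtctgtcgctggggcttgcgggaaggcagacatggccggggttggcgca
Ndufb6, chr4:40279372-40279671, minus strand: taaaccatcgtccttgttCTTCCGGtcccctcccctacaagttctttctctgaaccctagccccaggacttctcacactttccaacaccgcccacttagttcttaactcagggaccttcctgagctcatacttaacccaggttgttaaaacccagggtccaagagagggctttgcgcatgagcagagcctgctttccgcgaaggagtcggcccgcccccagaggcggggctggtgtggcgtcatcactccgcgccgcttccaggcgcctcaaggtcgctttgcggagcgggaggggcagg
Ndufa11, chr17:56717512-56717811, plus strand: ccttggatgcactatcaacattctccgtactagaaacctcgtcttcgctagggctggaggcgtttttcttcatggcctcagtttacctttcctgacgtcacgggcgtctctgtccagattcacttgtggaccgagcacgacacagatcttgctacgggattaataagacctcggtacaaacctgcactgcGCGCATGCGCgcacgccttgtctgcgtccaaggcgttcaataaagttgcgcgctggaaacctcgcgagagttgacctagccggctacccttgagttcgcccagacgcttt
Atp5sl, chr7:25619164-25619463, plus strand: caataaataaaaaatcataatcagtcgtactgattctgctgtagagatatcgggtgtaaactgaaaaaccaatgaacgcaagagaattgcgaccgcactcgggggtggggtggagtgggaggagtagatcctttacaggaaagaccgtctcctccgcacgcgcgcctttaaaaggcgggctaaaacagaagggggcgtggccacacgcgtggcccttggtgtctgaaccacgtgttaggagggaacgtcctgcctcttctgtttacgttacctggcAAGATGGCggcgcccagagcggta
Cox6b2, chr7:4753045-4753344, minus strand: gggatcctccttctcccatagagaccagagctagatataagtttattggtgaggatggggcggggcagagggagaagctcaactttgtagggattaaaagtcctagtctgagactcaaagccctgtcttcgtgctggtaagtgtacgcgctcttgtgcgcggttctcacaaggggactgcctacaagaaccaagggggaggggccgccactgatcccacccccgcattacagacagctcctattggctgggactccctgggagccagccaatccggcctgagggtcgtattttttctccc
The stretch of Cox6a1 held 2 NRF1 motifs and 1 ETS motif, that of Sdha 3 NRF1 motifs, and that of Cox6b2, a gene known from testis, none of the 3. RefSeq promoters were matched for 67 of the 79 genes. The NRF1 motif, searched on both strands like the others, was found in 17 of them (25.4%), against 11.6% of 9694 tested genes and 5.19% of all 27025 genes in the promoter table. The ETS motif was found in 16 (23.9%, against 19.9% and 9.93%) and the YY1 motif in 11 (16.4%, against 5.28% and 3.19%). At least 1 of the motifs was present in 38 of the 67 (56.7%, against 32.1% and 16.4%). A match is a run of letters and was not tested as a binding site.

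Mean levels ran from 5.72 RPKM for Ndufa4l2 to 1176 RPKM for Atp5k, a small membrane subunit of ATP synthase, with a median of 372. By complex the highest and lowest genes were Ndufa3 (773) and Ndufa4l2 in complex I, Sdhb (316) and Sdha (228) in complex II, Uqcrq (832) and Uqcrc2 (176) in complex III, Cox6a1 (795) and Cox6b2 (7.24) in complex IV, and Atp5k and Atp5s (7.77) in complex V. The subunits of complex II therefore lay within a narrow band, and the low ends of complexes I, IV and V were a paralog, an isoform of testis and a coupling factor. Whole reads were recovered from the steps of the values for 68 of the 79 genes in every library, within 0.005 reads, against 0 genes after a random rescaling of the libraries with an SD of about 2%. The median gene among them rested on 448 reads in its median library. Only Ndufa4l2, Cox7a1 and Atp5s, with medians of 10, 11.5 and 26 reads, had fewer than 50 among these 68. Reads of some abundant genes rose little with depth. From GF 4 to GF 2, with 1.39 and 3.50 M counted reads, those of Uqcrq went from 582 to 650. Those of Cox6a1 went from 607 to 713, and those of Sdha from 929 to 2062. How far this shapes the levels and ranks of abundant genes was not tested.

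Counted reads per library, read from the same steps, ranged from 1.34 to 3.76 M. Hepatocyte markers summed to 2894 to 6998 RPKM per library, and those of skeletal muscle, another tissue rich in the chain, to at most 0.644. The libraries differed in how RPKM fell with transcript length. The slope of log2 RPKM on log2 length was -0.628 to -0.498 in 10 libraries, namely all of JAX and TAC with GF_JAX 1 and GF_JAX 4, and -0.883 to -0.692 in the other 12, which separates JAX and TAC from GF completely and for which the labels give no reason. Correlations of log2 values between libraries were 0.884 to 0.955 within groups and 0.867 to 0.955 between groups. In bulk liver RNA a change in cell types and a change in RNA per cell cannot be told apart.

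The 79 genes together made up 4.34% ± 0.346 of the summed RPKM in JAX and 4.53% ± 0.308 in TAC (SD), against 5.08% ± 0.637 in GF, 5.09% ± 0.633 in GF_JAX and 4.74% ± 0.388 in GF_TAC. The lowest group mean was that of JAX for 70 of the 79 genes, and the highest that of GF for 41 and of GF_JAX for 32. Complex I summed to 10360 ± 1283 RPKM in JAX, 11219 ± 1012 in TAC, 14420 ± 3071 in GF, 13917 ± 3169 in GF_JAX and 12596 ± 1245 in GF_TAC. Complexes III, IV and V had the same order of JAX lowest and TAC next, with GF_JAX highest, while complex II differed little, from 954 ± 90 in JAX to 1115 ± 136 in GF_JAX. The spread was widest within GF and GF_JAX, whose sums of all 79 genes ran from 24274 to 42624 and from 27498 to 43200 RPKM, so that each of these groups alone spanned most of the range of the study.

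In every group most of the genes were higher in the shallowest library than in the deepest. In GF the shallowest library, with 1.39 M reads, held the highest sum and the deepest, with 3.50 M, the lowest. Of the 79 genes 75 were higher in the shallowest, and the median ratio was 1.67. The corresponding counts of genes higher in the shallowest library were 77 of 79 in JAX (median ratio 1.38), 76 in TAC (1.18), 74 in GF_JAX (1.37) and 76 in GF_TAC (1.26). The sums of the 79 genes fell in the exact order of depth in JAX and GF and not in the other 3 groups. In GF_JAX libraries 3, 4 and 5 had nearly equal depths, 1.34, 1.43 and 1.39 M reads, and sums of 41347, 30769 and 43200 RPKM, and the lowest sum, 27498, was that of library 1 with 1.95 M reads. Over all genes above 5 RPKM the same ratios were 0.994 to 1.02. Depth differed between the groups as well. Relative to JAX 1 the JAX libraries were the deepest (1.32 ± 0.276) and the GF_JAX libraries the shallowest (0.786 ± 0.279), with TAC at 0.956 ± 0.109, GF at 1.02 ± 0.387 and GF_TAC at 1.12 ± 0.175 (SD).

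**Figure D1:**
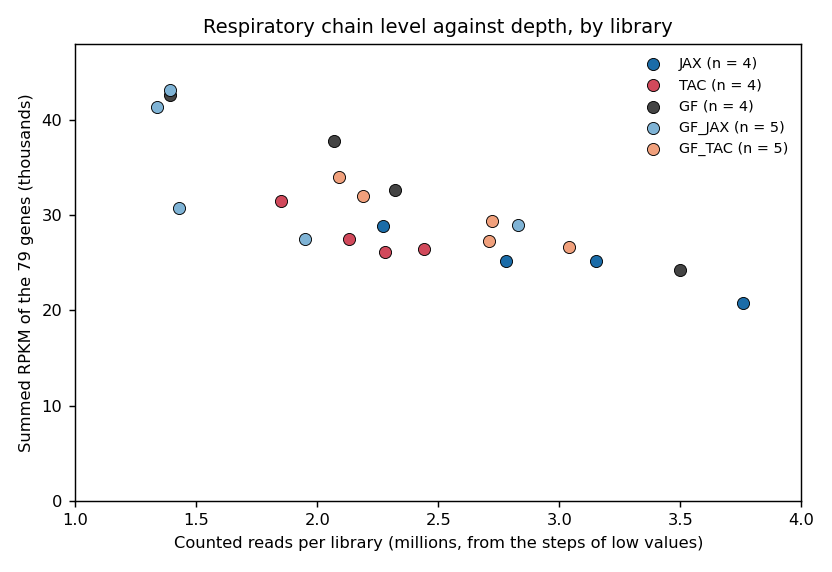
Summed RPKM of the 79 genes (vertical axis, in units of 1000 RPKM) against counted reads (horizontal axis, M, read from the steps of low values), 1 point per library, coloured by group. The sum is highest, 43200, in a library of 1.39 M reads and lowest, 20797, in the deepest one of 3.76 M.

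Differences between groups were tested for 12264 genes with limma on log2(RPKM + 1), and log2 differences and folds below are on that scale, on which low genes appear to change less than they do. GF minus JAX was the comparison with the most respiratory chain genes past the threshold, an adjusted p under 0.05. In it 20 genes were higher and 2 lower in GF, 27.8% of the 79, beside 24.0% of all genes tested (11.7% higher and 12.3% lower). The median difference of the 79 was 0.45 and that of all genes 0.01. In GF minus TAC 6 were higher and 1 lower, 8.86%, beside 24.3% of all genes (11.1% higher and 13.2% lower), with a median of 0.28 against 0.02. The total share in the first comparison was thus near that of all genes and in the second well below it, while the calls leaned to higher values more than those of all genes did. Both comparisons share the GF libraries.

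**Figure D2:**
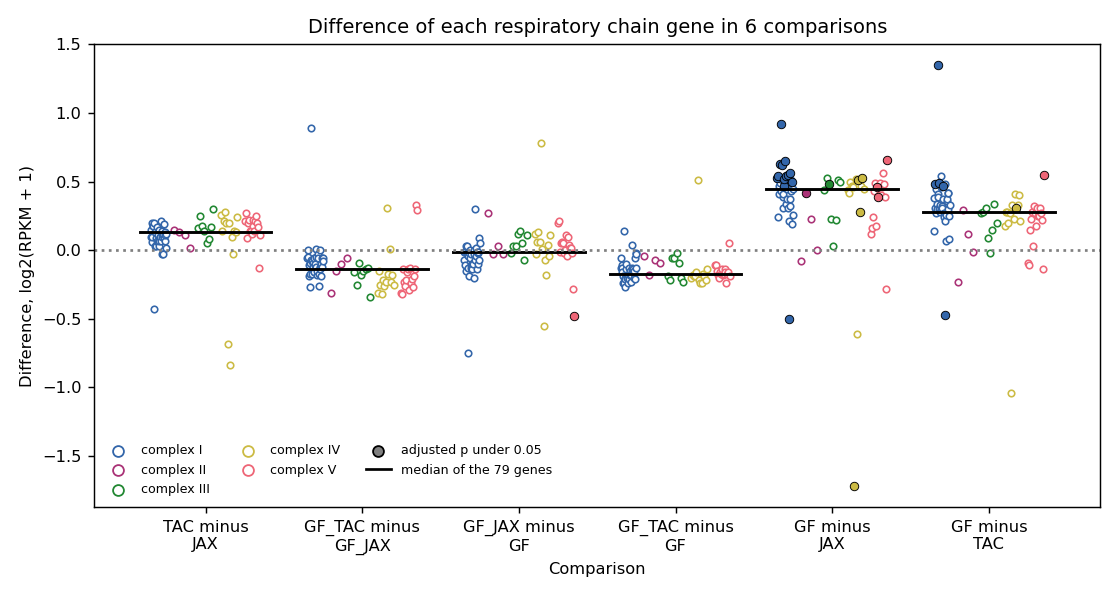
Difference of each of the 79 genes (log2(RPKM + 1)) in 6 comparisons, 1 circle per gene, coloured by complex, filled where the adjusted p was under 0.05, with black lines at the median of the 79. The median is 0.45 in GF minus JAX and 0.28 in GF minus TAC, and between -0.17 and 0.13 in the other comparisons.

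In complex I, which takes electrons from NADH, 12 of 37 genes rose and 1 fell in GF against JAX, and 4 rose and 1 fell against TAC. These were 35.1% and 13.5% of the complex, beside 24.0% and 24.3% of all genes. The gene that fell was Ndufs1, the largest core subunit, which carries iron-sulfur clusters. It stood at 76.3, 74.2, 75.8 and 78.0 RPKM in JAX, at 76.6, 69.0, 78.2 and 75 in TAC and at 52.9, 60, 49.0 and 53.0 in GF. Every GF library lay below every vendor library. The difference was -0.50 ± 0.09 (SE, adjusted p = 0.00117) against JAX and -0.47 ± 0.09 (adjusted p = 0.00219) against TAC. In GF_TAC it stayed close to GF, at 53.9, 55.4, 54.7, 54.6 and 56.9 RPKM, and in GF_JAX it was spread, at 79.4, 64.7, 60.2, 75.2 and 54.4. The 2 high GF_JAX values, 79.4 and 75.2, are those of libraries 1 and 4, which have the length slope of the vendor libraries.

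The other core subunits of complex I did not follow Ndufs1. Of the 7 nuclear core genes 1 rose, Ndufs8 (0.50, adjusted p = 0.0363 against JAX), and 5 did not pass, with differences from 0.19 for Ndufv1 to 0.43 for Ndufs7. The other genes that rose in complex I were accessory subunits, apart from the paralog Ndufa4l2. Ndufa7 was at 435, 318, 403 and 380 RPKM in JAX, 384, 484, 381 and 435 in TAC, and 661, 413, 579 and 752 in GF. The deepest GF library, at 413, fell within the range of JAX, and the other 3 lay above both vendor groups. The differences were 0.62 ± 0.16 against JAX (adjusted p = 0.0123) and 0.49 ± 0.16 against TAC (adjusted p = 0.0374). Ndufb3, with the largest rise among the accessory subunits proper, was at 255, 194, 234 and 224 RPKM in JAX and at 407, 243, 361 and 445 in GF, a difference of 0.65 ± 0.20 (adjusted p = 0.026), again with the deepest GF library inside the range of JAX.

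Ndufb6 and Ndufa11, accessory subunits of the membrane arm, rose against both vendors. Ndufb6 was at 374, 278, 346 and 353 RPKM in JAX, 343, 412, 307 and 359 in TAC and 581, 354, 470 and 598 in GF (1.46-fold and 1.39-fold, adjusted p = 0.0237 and 0.0424). Ndufa11 was at 44.1, 32.8, 42.8 and 38.3 RPKM in JAX, 39.3, 47.9, 40.4 and 37.2 in TAC and 68.2, 42.6, 55.6 and 68.0 in GF (1.46-fold and 1.39-fold, adjusted p = 0.0248 and 0.0407). In both genes the deepest GF library overlapped the vendor libraries and the other 3 did not. The remaining complex I genes that rose against JAX were Ndufa1, Ndufa2, Ndufb2, Ndufb11, Ndufc1 and Ndufs5, by 0.47 to 0.63. Ndufa3, the complex I gene of the highest level, reached 0.52 and did not pass (adjusted p = 0.0535).

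The largest rise in complex I by name was that of Ndufa4l2, a paralog of Ndufa4 that is known as a target of HIF-1alpha and to lower respiration in hypoxia. It was at 4.24, 3.84, 4.98 and 2.16 RPKM in JAX, at 3.46, 3.9, 1.06 and 2.27 in TAC and at 11.1, 7.22, 7.78 and 6.05 in GF, with every GF library above every vendor library. The differences were 0.92 ± 0.31 against JAX (adjusted p = 0.0374) and 1.35 ± 0.31 against TAC (adjusted p = 0.0058), the latter 2.54-fold. GF_TAC libraries, at 11.5, 6.67, 9.89, 9.78 and 6.73 RPKM, overlapped GF, and GF_JAX libraries, at 3.71, 7.22, 6.29, 1.68 and 4.34, reached from the vendor range into that of GF. These values rest on few reads, 2 to 26 per library.

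**Figure D3:**
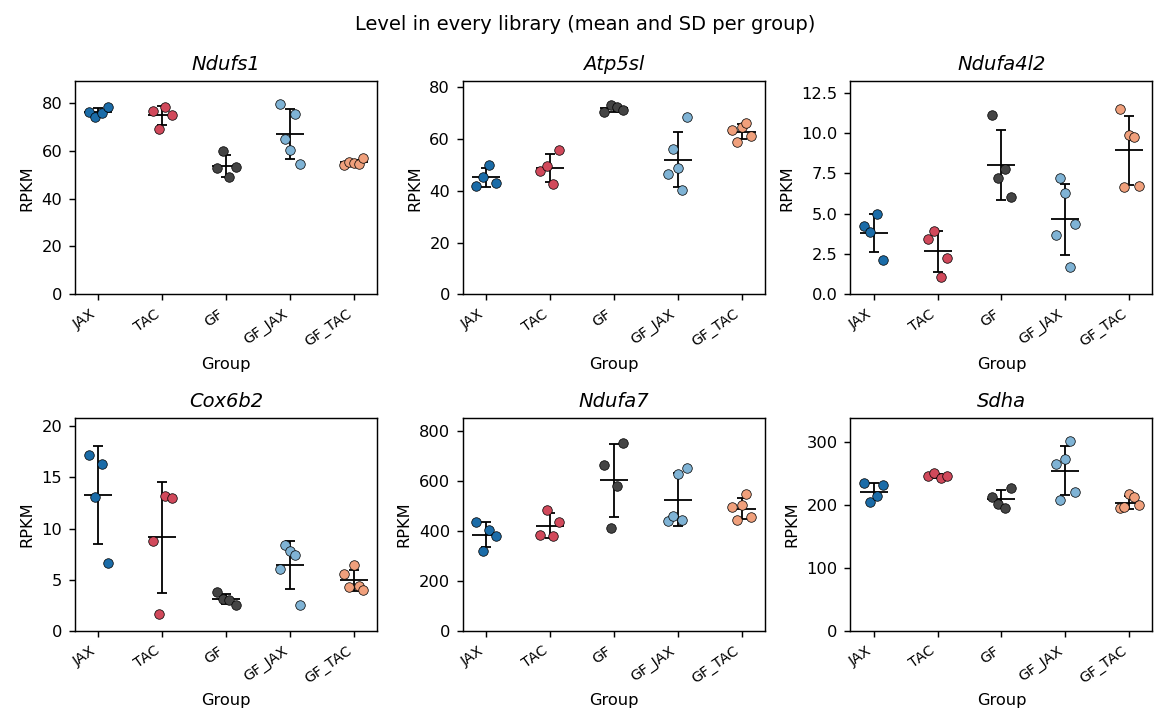
RPKM of 6 genes in every library (points) by group, with the mean and SD of the group (lines). Ndufs1 and Cox6b2 are lower in all GF than in all JAX libraries and Atp5sl and Ndufa4l2 higher, Ndufa7 overlaps in its deepest GF library at 413 RPKM, and Sdha differs little, with group means of 204 to 255.

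Complex II, succinate dehydrogenase, which is also a step of the citric acid cycle, differed least between the groups in its sum. Lengths of the genes differ between the complexes as well, as given below. Sdhb, its iron-sulfur subunit, was at 301, 227, 264 and 266 RPKM in JAX and at 406, 267, 337 and 422 in GF, and rose by 0.42 ± 0.15 (adjusted p = 0.0461). The deepest GF library, at 267, lay within the range of JAX. Sdha, the flavin subunit, was at 235, 206, 215 and 232 RPKM in JAX, 246, 251, 243 and 246 in TAC, and 214, 202, 196 and 228 in GF, with differences of -0.08 (adjusted p = 0.559) and -0.23 (adjusted p = 0.0789). All GF libraries lay below all TAC libraries, and GF and JAX overlapped. Of the membrane subunits, Sdhc differed by 0.23 and Sdhd by 0.00 from JAX, and neither passed. The genes of one small complex thus gave differences from -0.08 to 0.42 in the same libraries.

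In complex III 1 of 8 genes rose against JAX, Uqcrb, a small subunit near the ubiquinone site (0.48 ± 0.17, adjusted p = 0.0425), and none passed against TAC. Both shares, 12.5% and 0%, lay below the 24.0% and 24.3% of all genes. Uqcrq, a small membrane subunit and the highest of the complex, was at 778, 508, 615 and 665 RPKM in JAX and 997, 579, 862 and 1303 in GF, and its difference of 0.50 ± 0.21 did not pass (adjusted p = 0.0887). Uqcrc2, a core protein of the matrix side and the lowest of the complex, was at 186, 145, 174 and 171 RPKM in JAX and 181, 157, 164 and 187 in GF, a difference of 0.03 ± 0.09 (adjusted p = 0.816). The ranges of both genes overlapped between the groups.

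In complex IV, cytochrome c oxidase, 3 of 13 genes rose and 1 fell against JAX, and 1 rose against TAC. The shares were 30.8% and 7.69%, beside 24.0% and 24.3% of all genes. Cox7a2, the isoform of subunit 7a found in liver, was at 259, 186, 228 and 213 RPKM in JAX and 364, 220, 307 and 397 in GF (0.51 ± 0.17, adjusted p = 0.0342). Cox7c rose by 0.53 (adjusted p = 0.0317). Cox7a2l, which helps to join complexes III and IV into supercomplexes, was at 206, 174, 195 and 194 RPKM in JAX, 177, 198, 180 and 196 in TAC and 249, 186, 245 and 259 in GF, where 3 of the 4 libraries lay above both vendor groups. Its differences were small with small errors, 0.28 ± 0.09 against JAX (adjusted p = 0.0385) and 0.31 ± 0.09 against TAC (adjusted p = 0.0232). The 3 abundant genes Cox4i1, Cox6a1 and Cox8a differed by 0.44 to 0.47 from JAX and did not pass.

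Isoforms of complex IV subunits known from other tissues were measured beside the common ones. Cox6b2, known from testis, was at 17.2, 13.1, 16.3 and 6.63 RPKM in JAX and at 3.82, 3.16, 3.06 and 2.55 in GF, with no overlap, and fell by 1.72 ± 0.40 on the log2 scale (adjusted p = 0.00611). In TAC it was at 8.76, 1.64, 13.2 and 13, so that 1 TAC library lay below all GF libraries, and the difference of -1.04 did not pass (adjusted p = 0.0644). Its ubiquitous counterpart Cox6b1 had a difference of the other sign in the same libraries, from 480 ± 77.0 RPKM in JAX to 674 ± 175 in GF (SD, n = 4 each), and did not pass (adjusted p = 0.0701). Cox7a1, known from muscle and brown fat, was at 55.5, 33.5, 54.7 and 49.4 RPKM in JAX and 23.5, 34.0, 30.2 and 18.9 in TAC, the largest difference of the 79 genes between the vendors (-0.84 ± 0.29), which did not pass (adjusted p = 0.329). It rests on 4 to 30 reads per library. Of markers of those tissues, the 5 of skeletal muscle were all at 0 in GF, and Ucp1 of brown fat was at 0 in all groups but TAC. Cidea, another marker of brown fat, was detected in every group, at 3.33 ± 3.57 RPKM in JAX, 2.29 ± 0.996 in TAC, 0.447 ± 0.650 in GF, 1.23 ± 0.799 in GF_JAX and 0.587 ± 0.425 in GF_TAC (SD). Its group mean, like that of Cox7a1, was highest in JAX, where its spread exceeded the mean. Their part in the differences was not tested.

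In complex V 3 of 17 genes rose against JAX, Atp5g1, Atp5g2 and Atp5sl, and against TAC Atp5sl alone. Both shares, 17.6% and 5.88%, lay below the 24.0% and 24.3% of all genes. The c-ring of ATP synthase is encoded by 3 genes with the same mature protein, and their differences were alike in size. Atp5g1 was at 328, 230, 284 and 276 RPKM in JAX and 424, 286, 369 and 477 in GF (0.46 ± 0.17, adjusted p = 0.0487), and Atp5g2 at 377, 265, 336 and 324 in JAX and 472, 325, 421 and 496 in GF (0.39 ± 0.14, adjusted p = 0.0441). Atp5g3, the most abundant, was at 616, 411, 493 and 499 in JAX and 732, 459, 645 and 879 in GF, and its difference of 0.40 ± 0.18 did not pass (adjusted p = 0.108). In each of the 3 genes the deepest GF library lay within the range of JAX. The 5 genes of the catalytic F1 part had a median difference of 0.24, and none passed. Atp5k, the gene with the highest level of all, had means of 903 ± 130 RPKM in JAX and 1367 ± 389 in GF (SD), with overlapping ranges of 742 to 1057 and 870 to 1798, and did not pass (adjusted p = 0.051). The hepatocyte genes Alb, Apoa1 and Apoe had near-equal means of 856, 850 and 817 RPKM. The correction for reads that share a start position, used below, takes their mean in each library as a ceiling. Atp5k was at the limit of that correction in every library. How far a ceiling shapes its level and its difference was not tested.

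Atp5sl, an assembly factor of complex I in spite of its symbol, had the smallest adjusted p of the 79 genes. It was at 41.9, 45.5, 50.1 and 43.2 RPKM in JAX, 47.7, 49.8, 42.6 and 55.7 in TAC, and 70.3, 73.3, 72.6 and 71.3 in GF. The GF libraries were close together in spite of their depths, and lay above every vendor library. The difference was 0.66 ± 0.11 against JAX (1.58-fold, adjusted p = 6.50e-04) and 0.55 ± 0.11 against TAC (1.46-fold, adjusted p = 0.00318). Atp5s, its relative by name, was at 10.9, 7.18, 10.6 and 8.68 RPKM in JAX and 9.63, 6.29, 7.65 and 6.63 in GF, and did not pass (-0.28 ± 0.19, adjusted p = 0.281).

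Between colonised and germ-free mice no subunit of the respiratory chain passed the threshold, and of the 79 genes Atp5sl alone did. In GF_JAX minus GF, where 0.612% of all genes passed and 0.269% were lower, Atp5sl fell by 0.48 ± 0.11 (adjusted p = 0.047). Its GF_JAX libraries were at 46.5, 56.1, 49.0, 40.3 and 68.4 RPKM, all below the 4 GF libraries, and the call held in only 2 of 22 fits that left out 1 library, those without GF_JAX 2 or GF_JAX 5 (adjusted p over the 22 from 0.00457 to 0.138). The median of the 79 was -0.01 (all genes -0.00), but its sign depended on the processing. It was -0.21 with depth in the fit, where 73 of the 79 differences were below 0, -0.16 with the shared-start correction, 0.16 with the length correction, where 70 of 78 were above 0, and 0.14 without GF_JAX 1 and 4. In GF_TAC minus GF no gene of the 79 passed, beside 0.204% of all genes, none had an unadjusted p under 0.05, beside 8.49%, and the median was -0.17. In GF_TAC the 5 libraries of Atp5sl, at 63.6, 58.7, 64.6, 66.2 and 61.3 RPKM, also lay below all GF libraries, but the difference of -0.19 ± 0.11 did not pass (adjusted p = 0.675). Both comparisons share the GF libraries, and the difference between them is GF_TAC minus GF_JAX, in which Atp5sl did not pass (0.29 ± 0.10, adjusted p = 0.241).

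Between the vendors, TAC minus JAX, no respiratory chain gene passed, beside 0.294% of all genes. At an unadjusted p under 0.05 there was 1, Cox7a1, beside 8.99% of all genes, and 72 of the 79 differences were above 0 (median 0.13). Between the recipients of TAC and of JAX cecal contents, GF_TAC minus GF_JAX, none passed either, beside 0.171% of all genes. Here 7 had an unadjusted p under 0.05, beside 13.3% of all genes, and 73 of the 79 differences were below 0 (median -0.14). The medians of both comparisons changed sign once depth entered the fit, to -0.09 and 0.14, and were 0.00 and 0.02 after a correction for reads that share a start position. Across the 78 genes with a known length the difference went with the level of the gene, with a Pearson correlation of 0.82 in TAC minus JAX and -0.67 in GF_TAC minus GF_JAX, which describes genes measured in the same libraries and is not a test over samples. The difference between the 2 comparisons, the interaction, passed for none of the 79, beside 1.48% of all genes, with a median of -0.27. The smallest adjusted p in it was that of Sdha, 0.0762, whose libraries were at 266, 209, 274, 303 and 222 RPKM in GF_JAX and 195, 197, 218, 213 and 200 in GF_TAC. Ndufa4l2 had the largest interaction, 1.31 ± 0.42 (adjusted p = 0.117).

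Transcript length went with the differences between germ-free and vendor mice over all genes. In GF minus JAX the median difference of all genes was 0.48 for transcripts of up to 600 bases, 0.41 for 600 to 1000 bases, 0.22 for 1000 to 2000 bases and -0.09 for longer ones. The respiratory chain genes had medians of 0.50, 0.47, 0.31 and 0.24 in the same classes, from 16, 29, 25 and 8 genes. Transcripts of these genes are thus mostly short, and in the classes of up to 1000 bases their differences were close to those of other genes of that length. The share of all genes higher in GF was 24.6% in the class of the shortest transcripts and 35.7% in the next, where 4 of 16 and 9 of 29 respiratory chain genes were higher. In GF minus TAC the medians of all genes were 0.37, 0.36, 0.21 and -0.09, and those of the respiratory chain genes 0.29, 0.30, 0.25 and 0.13. Ndufs1, with a transcript of 2661 bases, is in the class of the longest, in which 16.6% of all genes were lower in GF than in JAX. These lengths are those of the longest isoforms. Recovered reads gave, for 27 genes above 1000 bases, RPKM scaled to a median of 86.2% of that length, from 6.23% to 101%. In the longest class Sdha and Atp5a1 were scaled to 2925 and 2453 bases, but Ndufa10, Sdhc, Ndufb8 and Ndufb2 to 1105, 1071, 478 and 272. The longer classes thus hold some genes scaled as shorter ones. Over the 78 genes of known length, length and difference had a Spearman correlation of -0.54 in GF minus JAX. It was -0.37 in GF minus TAC, with Pearson correlations on log2 length of -0.21 and -0.26. These are not tests over samples. Sdhb, Sdhc and Sdhd were scaled to 954, 1071 and 1188 bases, Atp5b and Uqcrc2 to 1844 and 1847, and Uqcrq to 321. The complexes were not compared at equal length.

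**Figure D4:**
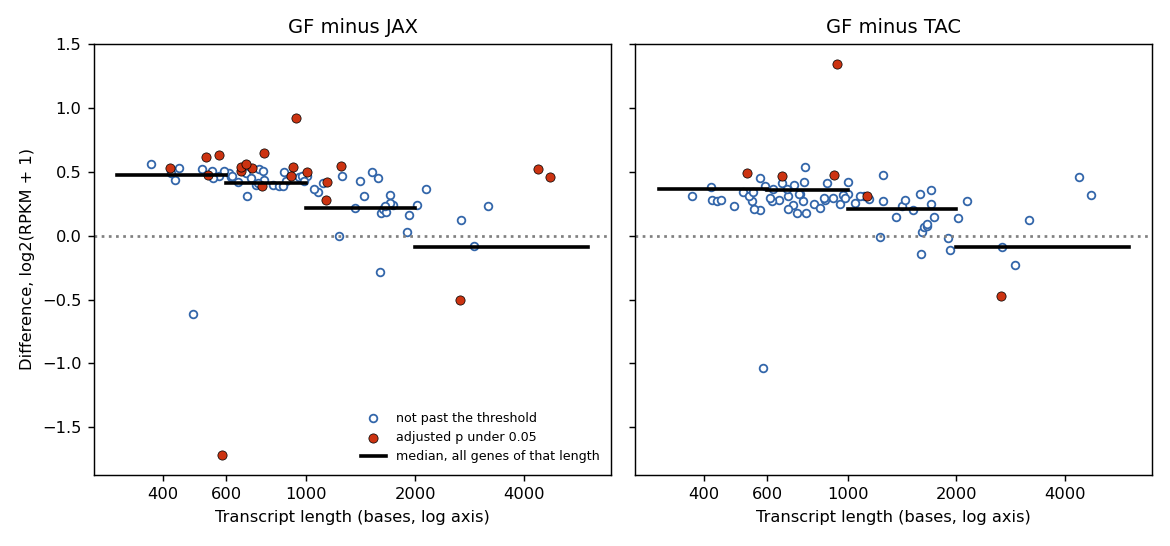
Difference (log2(RPKM + 1)) of the 78 genes with a known transcript length against that length (bases of the longest coding isoform, log axis), filled where the adjusted p was under 0.05, with black lines at the median of all tested genes of the same length class. Most genes lie near the line of their class, at 0.48 and 0.41 for the shorter classes in GF minus JAX, and Ndufs1 and Cox6b2 are among those below it.

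The number of genes past the threshold depended on the processing and on single libraries. With depth in the fit 2 genes were higher and 2 lower in GF minus JAX, but 58 and 2 in GF minus TAC. After each library was corrected by its own line of level on length, 2 were higher and 5 lower in the first and 2 and 3 in the second, and the medians were 0.06 and -0.10. The 2 higher against JAX were Ndufb2 and Atp5g1, with longest isoforms of 4371 and 4715 bases. The RPKM of Ndufb2 were scaled to about 272 bases, so the line corrected it as a far longer gene. For Atp5g1 that length was not recovered. Rescaling each library to the same sum (TPM) gave 9 higher and 6 lower in GF minus JAX, and 556 higher and 2506 lower over all genes against 1430 and 1509 as reported, with the median of all genes moved to -0.17 and that of the 79 to 0.24. In GF minus JAX the count of 22 became 4 without GF 1, 70 without GF 2, the deepest GF library, 8 without GF 3, 5 without GF 4, 4 without JAX 2, 12 without JAX 3, 5 without JAX 4, 36 without GF_JAX 1, 37 without GF_JAX 3 and 42 without GF_JAX 5, the last 3 through the shared estimate of spread. In GF minus TAC the count of 7 became 47 without GF 2, 3 without any other GF library, 3 without TAC 1 or TAC 3, 4 without TAC 4, 11 without GF_JAX 1 or GF_JAX 4 and 12 without GF_JAX 5. The length slope separates GF from both vendor groups, so that length dependence and the mice cannot be told apart. Depth overlapped between the groups. With it in the fit, as 1 straight line per gene over all groups, the median of the 79 was 0.20 against JAX and 0.30 against TAC. The calls then became fewer against JAX and more against TAC. The part of depth in the differences was not tested.

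**Figure D5:**
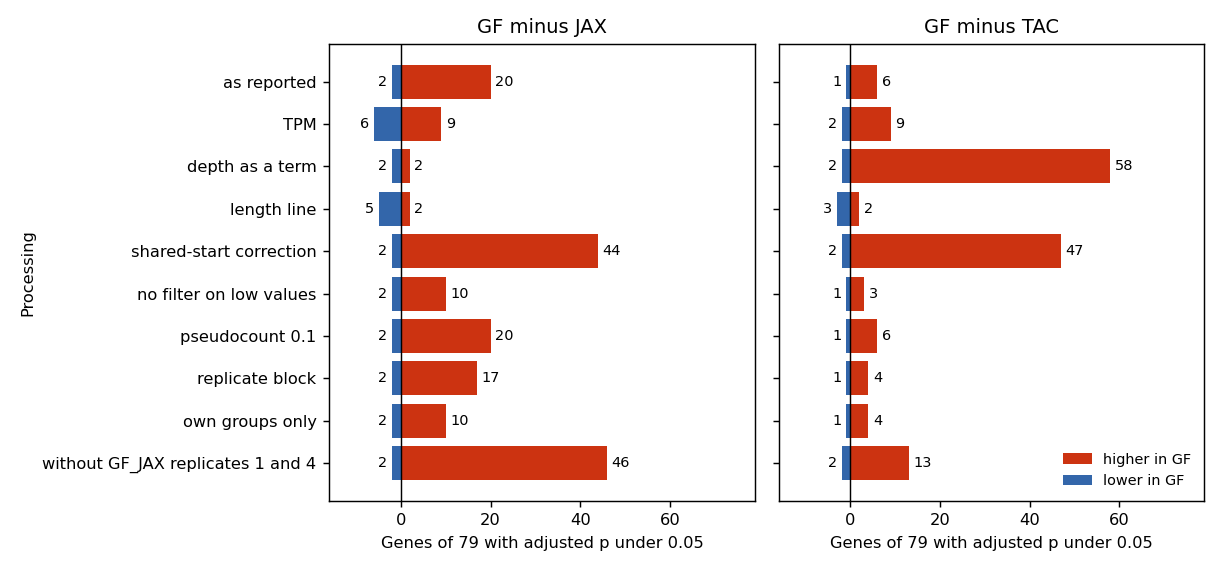
Number of the 79 genes with an adjusted p under 0.05, higher (red, to the right) or lower (blue, to the left) in GF, as reported and under 9 other ways of processing. The number higher runs from 2 to 46 in GF minus JAX and from 2 to 58 in GF minus TAC, while the number lower stays between 1 and 6.

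A few genes kept their calls throughout. Ndufs1 passed in all 22 fits that left out 1 library and in the 9 other settings, against JAX (adjusted p at most 0.00621) and against TAC (at most 0.0106). Atp5sl passed in all 22 fits and in 8 settings, against JAX (at most 0.0155) and TAC (at most 0.0219), but has no transcript length and so no value under the length correction. Cox6b2 passed in all 22 fits and 9 settings against JAX (at most 0.0245), and Ndufa4l2 against TAC (at most 0.0258). Ndufa7 passed in all 22 fits against JAX and lost the call only under the length correction (adjusted p = 0.493). Whole reads were not recovered for Ndufs1, Atp5sl, Cox6b2 and Ndufa7, so the reads behind their values are not given, and Cox6b2 is a gene of low level, down to 1.64 RPKM. Every other call was lost under at least 1 setting or without at least 1 library. Genes whose directions changed were Atp5g2, Ndufa1 and Uqcrb against JAX (-0.00, -0.04 and -0.01 with the length correction) and Ndufa7 and Ndufb6 against TAC (-0.07 and -0.01).

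A list of 10 genes outside these names was mixed. It holds partners of the chain and subunits that the names miss, Ndufab1 of complex I, Cyc1 of complex III and Usmg5 of ATP synthase. None of these subunits passed in any comparison. Atpif1, the inhibitor of ATP synthase, rose from 75.1 ± 6.09 RPKM in JAX and 60.2 ± 7.46 in TAC to 121 ± 9.89 in GF (SD, n = 4 each). The differences were 0.69 (adjusted p = 0.0148) and 1.0 (adjusted p = 0.00162). Etfdh, which passes electrons from fatty acid oxidation to ubiquinone, fell from 228 ± 22.8 and 245 ± 11.3 to 154 ± 20 RPKM, by 0.56 (adjusted p = 0.00388) and 0.67 (adjusted p = 0.00136). Gpd2, of the glycerol phosphate shuttle, fell by 0.94 against JAX (adjusted p = 0.00625), and Dhodh, which feeds electrons from pyrimidine synthesis, rose by 0.48 against TAC (adjusted p = 0.0413). Of 40 assembly factors 8 rose and 4 fell against JAX and 9 rose and 4 fell against TAC, where 11.7% and 12.3% of all genes rose and fell against JAX and 11.1% and 13.2% against TAC. Those that fell against both included Cox15, of heme A synthesis, Coa5 and Lrpprc, which stabilises mitochondrial mRNA (46.6 ± 1.36 RPKM in JAX, 46.1 ± 1.81 in TAC and 34.5 ± 2.89 in GF).

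Of 13 citric acid cycle genes 4 fell against both vendors and none rose, beside the 12.3% and 13.2% of all genes that fell. Among them were Ogdh, Dlst and Dld, which form the 2-oxoglutarate dehydrogenase complex, with Ogdh falling by 0.64 (adjusted p = 8.37e-04) and 0.72 (adjusted p = 5.78e-04). Of 77 mitochondrial ribosomal proteins, whose products translate the subunits encoded in mitochondrial DNA, 35 rose against JAX and 33 against TAC and none fell, with medians of 0.35 in both, beside the 11.7% and 11.1% of all genes that rose. By transcript length, 24.6% of all genes of up to 600 bases rose against JAX, 35.7% of 600 to 1000 and 6.91% above 2000. Above 2000 bases 16.6% fell. The related lists were not set against genes of their own length. Of 12 regulators of the chain none rose and 2 fell, Esrra, which encodes ERRalpha, by 0.43 (adjusted p = 0.0133) and 0.45 (adjusted p = 0.0102), and Yy1 by 0.32 (adjusted p = 0.0355) and 0.42 (adjusted p = 0.00961), a count near the share of all genes that fell. In the other comparisons no gene of these 5 lists passed. The 13 subunits encoded in mitochondrial DNA were looked for by symbol and not found among the genes with values, so they could not be analysed. Some markers of other liver cells moved too: 3 of 5 Kupffer cell markers and 2 of 5 of the sinusoidal endothelium were higher in GF than in JAX, where the Kupffer markers summed to 81.6 to 103 RPKM in GF and 43.4 to 96.1 in JAX. Against TAC, 1 of 5 Kupffer cell markers, Timd4 (1.13, adjusted p = 0.00452), and 1 of 5 of the endothelium, Stab2 (0.80, adjusted p = 4.93e-04), were higher. The endothelial marker Lyve1, which did not pass, had a lower mean in GF (8.56 RPKM) than in JAX (11.6) and TAC (11.3). Dcn, alone among 5 stellate cell markers, was higher against both vendors (0.40 and 0.39, adjusted p = 0.0214 and 0.0237). Among 5 cholangiocyte markers Krt7 alone passed against JAX (1.32, adjusted p = 0.00882) and Spp1 alone against TAC (0.50, adjusted p = 0.0443), both higher in GF. Krt19 also had a higher mean in GF (7.54 RPKM) than in JAX (3.33) and TAC (3.74). Epcam and Sox9 had lower means in GF (1.26 and 5.89 RPKM) than in JAX (2.69 and 6.93) and in TAC. Of 8 hepatocyte markers Cps1 was lower against TAC (-0.65, adjusted p = 0.0136). Alb, Apoa1 and Apoe are among these 8, had near-equal means and served as the ceiling of the shared-start correction. Whether their values follow hepatocyte content was not tested. The part of all these cell markers in the differences of the respiratory chain was not tested either.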

How the data were processed

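The authors deposited 1 table of RPKM, which are not counts. The build mm9 and the tools Cuffdiff 2.1.1 and Bowtie 1.0.0 are named per the submitters' processing notes. Their roles, the annotation, the strand setting and the handling of reads that match several places are not given in the sources used here, so genes with near-identical copies or overlapping neighbours are uncertain. Of 24397 entries, 461 empty ones and 27 with date numbers for names were left out.

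Values were analysed as log2(RPKM + 1) for genes with at least 1 RPKM in at least 4 libraries (12264), in 1 fit over all 22 libraries and 5 groups (limma 3.58.1, trend, R 4.3.3), two-sided, with p-values adjusted by Benjamini-Hochberg across those genes and called under 0.05. Tables and figures used Python 3.11.15, numpy 2.4.6, pandas 2.3.3, scipy 1.17.1 and matplotlib 3.10.9. The fit was also run on simulated data with independent noise per gene and changes set in TAC alone. These data held no dependence on length or depth, so that run does not bear on the calls in GF.

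Depth came from low values, which fall in whole reads for 83.7% of 5014 low genes (within 0.02 reads, against 0.16% after random rescaling), and gave 2.27 M reads for JAX 1. Each transcript length is that of a gene's longest coding isoform (GENCODE M21, another build), used without coordinates (78 of 79 genes). Reads without molecular identifiers are not independent molecules, so depth limits precision further than the counts show.

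Genes named with values were the highest and lowest of each complex, complex II, the c-subunit genes, the isoform pairs of complex IV, genes past the threshold (at most 10 per comparison, smallest p first) and the largest changes. Others were added after their values were seen, such as Uqcrb, Cox7c, Ndufs8 and the partners. The result of 1 listed gene is not reported here. The genes, lists and tests were chosen with earlier results of these data known. Alternatives were TPM, no filter on low values, a pseudocount of 0.1, depth as a term, a length line for each library, a shared-start correction, the replicate number as a block, each comparison's own groups, and each library left out in turn.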

Additional observations from a re-analysis of the deposited data

Results flagged for a closer look

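For each of 30 named genes and for the sums of each complex and of all 79 genes, the values of each group were searched for a library far from the others of its group by Dixon's ratio. This made 180 groups of values, of which chance flags about 1 in 20. Only 2 were found, both in TAC 2, the shallowest TAC library. In it Atp5g3, a gene of the ATP synthase c-ring, was at 663 RPKM, with the other 3 TAC libraries at 549 to 566. Ndufa2, an accessory subunit of complex I, was at 383 RPKM in TAC 2 and at 299 to 309 in the others.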

How the results depend on the processing

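The alternatives were chosen with earlier results of these data known. The number of respiratory chain genes past the threshold in GF minus JAX, 22 as reported, was 4 with depth as a term, 7 with the length line, 12 without a filter on low values, 12 with the groups of the comparison alone, 46 with the shared-start correction and 48 without GF_JAX 1 and 4 together. In GF minus TAC, with 7 as reported, it was 60 with depth, 5 with the length line, 4 without a filter, 49 with the shared-start correction, 15 without GF_JAX 1 and 4 and 11 with TPM. The single call in GF_JAX minus GF became 0 with TPM, depth, no filter, own groups, a pseudocount of 0.1, the replicate block, and without GF_JAX 1 and 4, and with the length line 0 of 78, where the gene called, Atp5sl, has no length and was not tested. The interaction called 1 with the length line. The median of the 79 moved to 0.20 with depth and 0.06 with the length line in GF minus JAX, to -0.10 with the length line in GF minus TAC, to -0.21 with depth, 0.16 with the length line and -0.16 with the shared-start correction in GF_JAX minus GF, to 0.14 with depth in GF_TAC minus GF_JAX, and in the interaction to 0.23 with depth and 0.00 with the shared-start correction. With the length line the differences of Atp5g2 (-0.00), Ndufa1 (-0.04) and Uqcrb (-0.01) against JAX and of Ndufa7 (-0.07) and Ndufb6 (-0.01) against TAC changed sign. The causes were not tested.

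Counts over all genes moved as follows. GF minus JAX fell from 2939 to 1541 with depth. GF_JAX minus GF went from 75 to 28 with TPM, 38 without a filter, 0 with its own groups, 46 with a pseudocount of 0.1 and 29 without GF_JAX 1 and 4. GF_TAC minus GF_JAX went from 21 to 11 without a filter and 0 with its own groups. TAC minus JAX went from 36 to 56 with the length line and 62 without GF_JAX 1 and 4, and the interaction from 182 to 102 with depth and 413 with the length line. TPM moved the median of all genes to -0.17 in GF minus JAX and 0.19 in the interaction.

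With each library left out in turn, the numbers of respiratory chain genes past the threshold ranged from 4 to 70 in GF minus JAX, 3 to 47 in GF minus TAC, 0 to 2 in GF_JAX minus GF and in GF_TAC minus GF_JAX, and 0 to 3 in the interaction. Those of all genes ranged from 1546 to 3715, 1677 to 3722, 6 to 251, 5 to 111 and 90 to 380 in the same order, from 6 to 34 in GF_TAC minus GF and from 16 to 44 in TAC minus JAX.

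Libraries with the same number did not deviate together (correlations of -0.12 to 0.15), so the numbers do not pair the samples. The replicate block gave 19 respiratory chain genes in GF minus JAX and 5 in GF minus TAC, and 2580, 2640, 23 and 7 of all genes in GF minus JAX, GF minus TAC, GF_JAX minus GF and GF_TAC minus GF_JAX.

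The length slope separates GF from the vendor groups, so mice and length dependence cannot be told apart. Depth overlaps between the groups, and its part in the differences was not tested. The shared-start correction reached its limit of 0.98 for 7 of the 79 genes in at least 1 library and for 1, Atp5k, in every library. Values of Ndufa4l2, Cox7a1 and Atp5s rest on few reads, and the reads behind Cox6b2, Ndufs1, Atp5sl and Ndufa7 were not recovered.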
